A study of Drosophila melanogaster with 6 samples.

Results

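Npc1b (CG12092) and ninaD (CG31783) of Drosophila melanogaster encode a candidate transporter for dietary sterol and a scavenger receptor needed for carotenoid uptake. They were found by their CG numbers in the authors' deposited table of changed genes, where each has 1 probe set, and are 2 of the 251 genes that the table identifies. The intensities come from 6 Affymetrix arrays of total RNA from whole adult flies, 3 labelled DHR96 mutant and 3 from Canton S, a wild-type strain, which the series' design text calls genetically matched. All flies were aged 7 days on standard food, so every array is of fed adults. The labels name no allele, no sex, no number of flies per sample and nothing on whether the samples of a group were collected separately, so each p-value reflects the spread among these arrays alone and that spread may be technical.

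Flies cannot make sterols and take them from food, as they do the carotenoids from which the visual chromophore is made. NPC1 proteins are large membrane proteins with a sterol-sensing domain that work with the small soluble NPC2 proteins in moving sterol. The fly has Npc1a, used for sterol trafficking inside cells throughout the body, and Npc1b, which is expressed in the midgut and is required there for sterol absorption. NinaD belongs to the CD36 family of scavenger receptors. It acts in the midgut, upstream of Santa-maria and NinaB, which take up carotenoids and cleave them to retinal outside it. DHR96, now named Hr96, is a nuclear receptor known for its role in triacylglycerol and cholesterol balance.

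The targeted gene did not fall. The Hr96 probe set read 977, 985 and 928 on the arrays labelled DHR96 mutant, against 527, 498 and 546 in Canton S. Neither the allele nor where the probe set lies within the gene is given in the labels, which this value therefore cannot check. The direction of each difference below rests on the labels. No array held a value under 97.2, against medians of 474 to 488, and what sets this floor was not tested. A poly-A control added to the RNA, the 3′ probe set for dap, read 473 and 519 on the arrays labelled DHR96 mutant replicates 2 and 3, against 1217 on replicate 1 and 1188, 1208 and 1007 in Canton S. The mean log2 value over 8 such 3′ control probe sets, dap included, was 8.22 and 8.23 on replicates 2 and 3. It was 8.94 on replicate 1 and 8.96, 8.94 and 8.81 in Canton S. The spike-in block used below separates arrays by this mean.

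Npc1b rose in the arrays labelled DHR96 mutant. Its probe set read 1148, 1081 and 1052 there, against 406, 456 and 416 in Canton S. All mutant-labelled arrays were high and the groups did not overlap: the lowest of them stood 2.31-fold above the highest Canton S array. The mean was 1094 ± 49.4 in the mutant-labelled arrays and 426 ± 26.4 in Canton S (SD, n = 3 each), a ratio of means of 2.57. On the log2(intensity + 16) scale, used for all tests, the difference was 1.33 (SE 0.0570, 95% interval 1.20 to 1.46, limma adjusted p = 4.19e-05). The replicates varied little, with a coefficient of variation of 4.52% in the mutant-labelled arrays and 6.19% in Canton S. The log2 difference was 15.6 times the larger of the SDs of the groups. Canton S levels lay below the array medians. With the lowest value of each array subtracted first, an alternative chosen after seeing the data, the log2 difference was 1.56.

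NinaD fell, and by less. Its probe set read 966, 1104 and 1014 on the arrays labelled DHR96 mutant, against 1493, 1611 and 1396 in Canton S. Here too the groups did not overlap, but the gap was narrow, with the highest mutant-labelled array 1.26-fold below the lowest Canton S array. The mean was 1028 ± 70.3 in the mutant-labelled arrays and 1500 ± 108 in Canton S (SD, n = 3 each), so the mutant-labelled level was 68.5% of the Canton S level. The log2 difference was -0.54 (SE 0.0666, 95% interval -0.69 to -0.38, limma adjusted p = 0.00721). Coefficients of variation were 6.84% in the mutant-labelled arrays and 7.18% in Canton S, and the difference was 5.25 times the larger of the log2 SDs. In whole flies, less ninaD RNA per cell and fewer cells that express the gene cannot be told apart, and likewise for the rise of Npc1b.

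**Figure D1:**
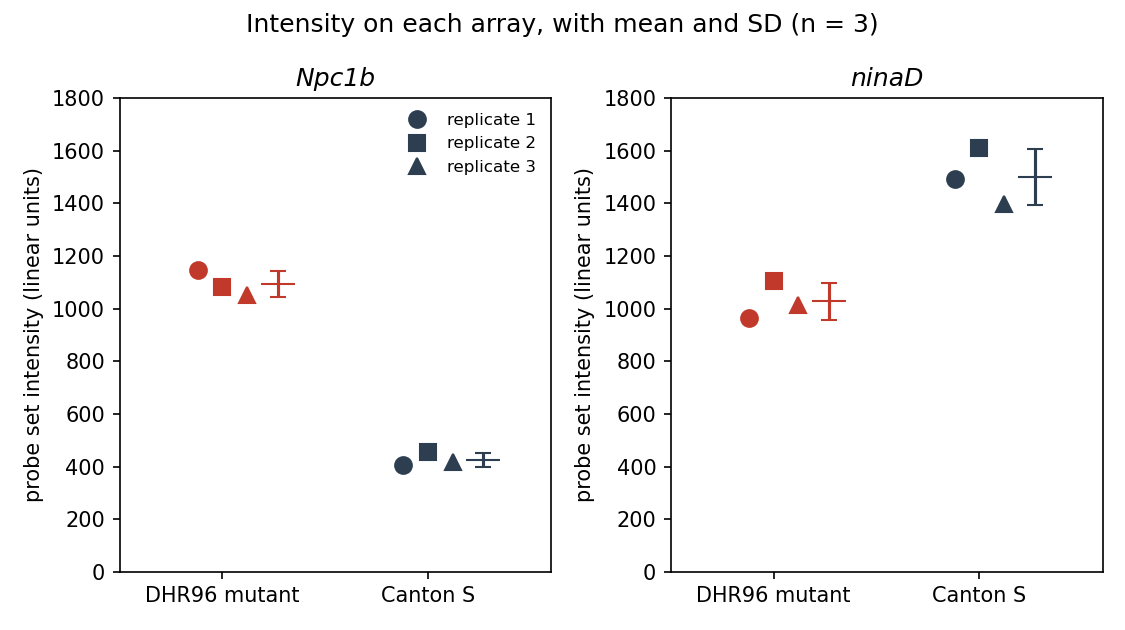
Probe set intensity (linear units, axis from 0) of Npc1b and ninaD on each array, with 1 symbol per replicate and the mean ± SD (n = 3) beside it. The arrays labelled DHR96 mutant lie between 1052 and 1148 for Npc1b and between 966 and 1104 for ninaD, against 406 to 456 and 1396 to 1611 in Canton S.

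The rise of Npc1b passed in each limma fit run, and the fall of ninaD in each but 1. In that fit, a block set apart the mutant-labelled replicates with the low poly-A control, which left replicate 1 alone against the Canton S arrays, and ninaD differed by -0.62 on the log2 scale with a limma adjusted p of 0.0840. The difference was no smaller than without the block, and its SE was 0.0907 against 0.0666. Npc1b differed by 1.40 in the same fit (limma adjusted p = 0.00191). With 1 array of a group left out at a time, ninaD differed by -0.59 to -0.49 and Npc1b by 1.29 to 1.38, and both passed each time, with limma adjusted p-values of up to 0.0386 for ninaD and 0.000657 for Npc1b. The exact permutation test over arrays gave a two-sided p of 0.10 for each gene, the smallest that 3 arrays against 3 allow.

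**Figure D2:**
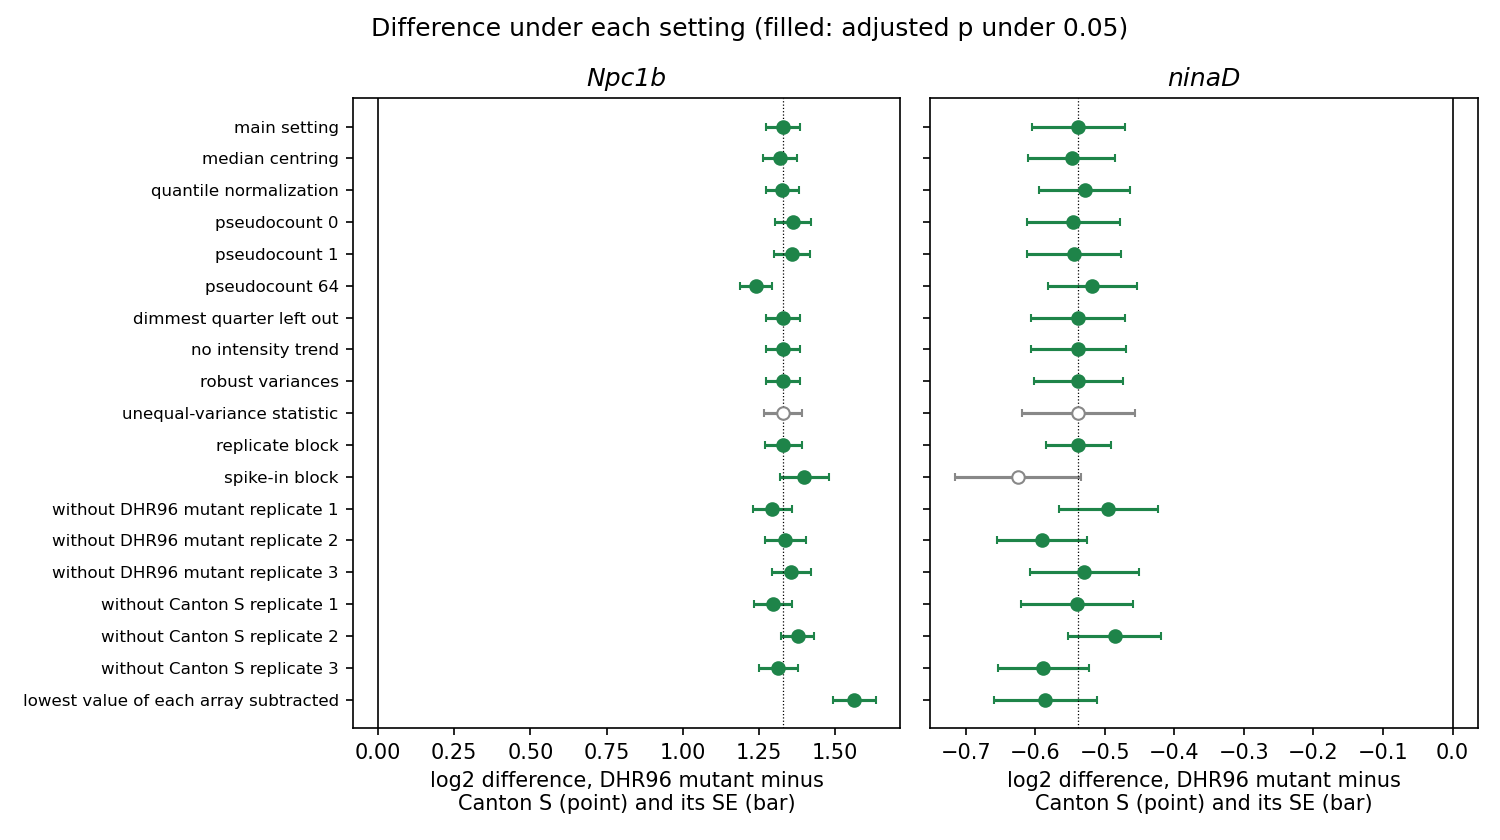
Log2 difference (arrays labelled DHR96 mutant minus Canton S) of Npc1b and ninaD with its SE under each setting. Filled points have an adjusted p under 0.05. Npc1b stays between 1.24 and 1.56 and ninaD between -0.62 and -0.49, and the open points are those of the unequal-variance statistic for both genes and of the spike-in block for ninaD.

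Among all 18769 probe sets tested, 3.29% passed the adjusted threshold of 0.05 as higher in the arrays labelled DHR96 mutant and 3.67% as lower, 6.96% in all. Groups that do not overlap were more common, at 30.9% of all probe sets and 251 of the 251 identified genes, so the lack of overlap is no mark of these genes. The rise of Npc1b was near the top of the array: 9 probe sets rose more on the log2 scale and 9 had a smaller p. The fall of ninaD was less extreme, with 64 probe sets that fell more and 136 with a smaller p. Both genes were read from a table that the authors had chosen on these same arrays, so their places are a description and their p-values are not independent evidence of a change.

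**Figure D3:**
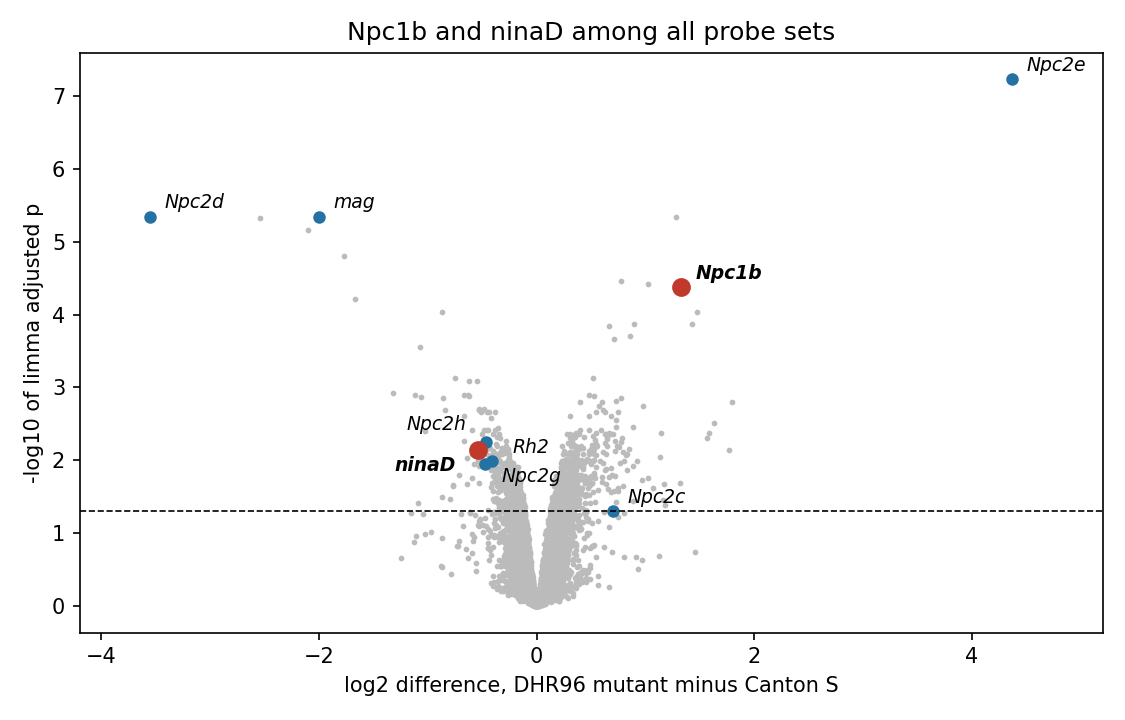
Log2 difference (arrays labelled DHR96 mutant minus Canton S, horizontal) against the -log10 of the limma adjusted p (vertical) for 18769 probe sets. Red points are Npc1b at 1.33 and ninaD at -0.54, blue points other genes of the sterol, carotenoid and lipid lists, and the dashed line the threshold of 0.05.

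In the authors' deposited table, Npc1b has a fold of 2.57 and a score of 7.98, the third of 180 probe sets listed as higher. NinaD has a signed fold of -1.46 and a score of -2.87 in the authors' deposited table, where it ranks 37 of 80 listed as lower. The listed q-values in the authors' deposited table are 0% for Npc1b and 0.390% for ninaD. The score is a log2 difference divided by an error term, and that term equalled the ordinary pooled standard error plus 0.108 for every probe set of the table. This added constant was larger than the standard errors themselves, which were 0.0631 for Npc1b and 0.0822 for ninaD.

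The NPC family, to which Npc1b belongs, moved both ways. Of 10 genes in the list, 6 had an identified probe set, of which 2 rose, 3 fell and 1 did not pass. Their median log2 difference was 0.11, against -0.0015 over all probe sets and 0.45 over the 251 identified genes. The authors' selection decides which members could be identified: of the 251 identified genes, 171 were higher and 80 lower and 235 passed, against 6.96% of all probe sets. These counts, and those of the other lists below, therefore say nothing of a family or list as a whole. Npc1a and the other Npc2 genes were not analysed here.

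Among the 6 identified members, Npc1b was second in rise to Npc2e, which encodes a secreted sterol-binding protein of the NPC2 type. Npc2e read 12639, 11798 and 11615 on the arrays labelled DHR96 mutant, against 536, 548 and 616 in Canton S, a log2 difference of 4.37 (limma adjusted p = 5.96e-08). Npc2d, next to Npc2e in gene order on chromosome arm 3R, read 179, 209 and 180 on the mutant-labelled arrays, against 2142, 2756 and 2339 in Canton S, a log2 difference of -3.56 (limma adjusted p = 4.57e-06). Npc1b differed in the direction of Npc2e and by less than either.

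Other Npc2 genes differed by amounts closer to that of ninaD. Npc2g fell to 3463 ± 337 in the mutant-labelled arrays, against 4811 ± 160 in Canton S (SD, n = 3 each), which is -0.48 on the log2 scale (limma adjusted p = 0.0110). Npc2h fell to 2371 ± 180 in the mutant-labelled arrays, against 3284 ± 31.3 in Canton S (SD, n = 3 each; -0.47, limma adjusted p = 0.00564). With the spike-in block, Npc2g and Npc2h differed by -0.36 and -0.38 on the log2 scale with limma adjusted p-values of 0.232 and 0.133, so neither passed there. Without Canton S replicate 1 the difference of Npc2g was still -0.48, but it did not pass (limma adjusted p = 0.0550). Npc2c read 402, 591 and 345 in the mutant-labelled arrays and 255, 255 and 274 in Canton S, with a limma adjusted p of 0.05001, just above the threshold, and it passed in 7 of the 18 alternative fits across all probe sets.

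**Figure D4:**
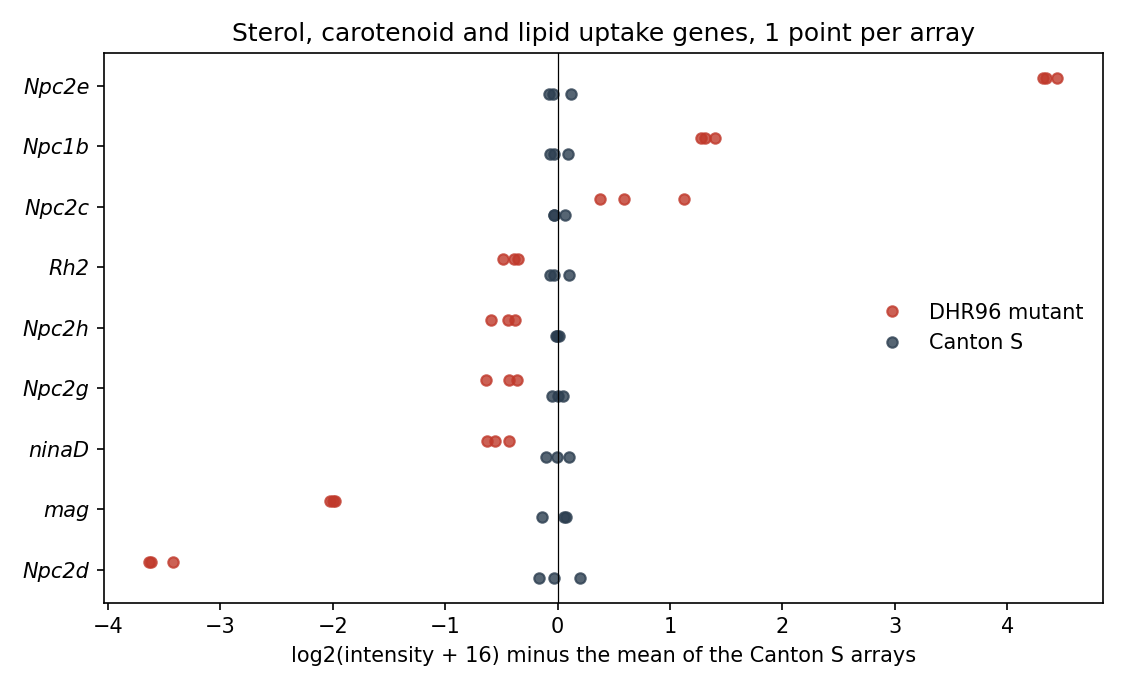
Log2(intensity + 16) on each array minus the Canton S mean of the same gene, for the 9 identified genes of the sterol, carotenoid and lipid lists, with the arrays labelled DHR96 mutant in red above Canton S in dark blue. Npc2e and Npc1b lie clearly to the right, mag and Npc2d clearly to the left, and ninaD lies close to Npc2g, Npc2h and Rh2.

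Of the 14 CD36 family genes listed, ninaD was the 1 with an identified probe set. Santa-maria, emp, crq, pes and both Snmp genes were not analysed here. Among 13 genes for carotenoid conversion and visual pigments, 1 was identified, Rh2, which encodes the opsin of the ocelli, the simple eyes on top of the head. Rh2 read 1057, 985 and 1084 on the arrays labelled DHR96 mutant, against 1489, 1355 and 1327 in Canton S (log2 difference -0.41, SE 0.0566, limma adjusted p = 0.0103). Other annotation terms of ninaD are shared mostly with genes that rose, as given below, but 171 of all 251 identified genes were higher, so this is no mark of those terms. Rh2 fell with ninaD, and it is the 1 other identified gene that shares the annotation term phototransduction with ninaD in the authors' deposited table. Its difference was -0.39 with the spike-in block, where the limma adjusted p was 0.221. None of 13 eye marker genes was identified, so the eye's share in these RNA samples was not tested.

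In the list of lipoprotein and lipid uptake genes, 1 of 12 was identified, mag (magro), which encodes a midgut lipase that acts on dietary fat and on sterol esters. The mag probe set read 1354, 1334 and 1373 on the arrays labelled DHR96 mutant, against 4980, 5773 and 5689 in Canton S (log2 difference -2.002, limma adjusted p = 4.57e-06). Mag and Npc1b, both known as midgut genes, thus differed in opposite directions.

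The annotation terms in the authors' deposited table place Npc1b and ninaD apart, with 5 terms for Npc1b, 11 for ninaD and 0 in common. Lipid transport, a term of Npc1b, is held by 5 other identified genes, of which 3 rose and 2 fell, beside 171 higher and 80 lower among all identified genes. Those that rose were Acbp3 (log2 difference 0.55), an acyl-CoA-binding protein gene, Atet (0.67), an ABC transporter gene, and Trpml (0.69), a lysosomal cation channel gene. Those that fell were CG4822 (-0.45) and Tspo (-0.39), which encodes a mitochondrial outer membrane protein. Npc1b differed by more than each of these on the log2 scale. Its broader term lipid metabolic process was held by 11 other identified genes, of which 5 rose and 6 fell, mag among those that fell. Receptor activity was held by 4 others (3 rose, 1 fell) and plasma membrane by 2 (2 rose). The terms carotenoid transport and scavenger receptor activity of ninaD were held by 0 other identified genes. Of the other genes with the term cell adhesion, 3 of 3 rose, with integral to plasma membrane 3 of 3, and with apoptosis 1 of 1. For defense response, 9 of 16 rose, 5 fell and 2 did not pass, and the 3 cell adhesion genes are among these 16. For phototransduction, the 1 other gene, Rh2, fell.

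Both genes are known from the midgut, and other midgut genes differed between the groups. Of 21 midgut marker genes, 7 were identified, all of which fell, with a median log2 difference of -0.79: the proteases iotaTry, Jon65Ai, Jon65Aii, Jon99Ci and Jon99Fi, the lipase mag and the mannosidase LManV. An identified gene was one selected for its difference, so nearly any identified marker had to pass: 235 of the 251 identified genes did, and 80 of the 251 were lower, against 3.67% of all probe sets that passed as lower. The summed intensity of the 7 markers lay between 16042 and 20058 on the arrays labelled DHR96 mutant, against 35573 to 38020 in Canton S. None of the 7 read near the floor of the arrays, and the lowest value was 634, for iotaTry on a mutant-labelled array. NinaD fell with these markers, and each of them had a larger fall on the log2 scale, the smallest being those of Jon99Ci (-0.62) and iotaTry (-0.67). Npc1b rose while all 7 fell. The part of the midgut genes' shift in the result for ninaD was not tested.

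Among the mutant-labelled arrays, replicate 2 had the highest ninaD value, 1104. The same array was highest for 5 of the 7 midgut markers, among them Jon65Ai at 3499 against 2433 and 2217 on replicates 1 and 3, but not for mag or Jon99Ci. Mutant-labelled replicates 1 and 3 were in opposite order, with ninaD at 966 and 1014 and midgut marker sums of 16836 and 16042. In Canton S, replicate 2 had the highest ninaD value, 1611, and the lowest sum, 35573. Canton S replicate 3 had the lowest ninaD value, 1396, and the highest sum, 38020. Orders over 3 arrays are too short to read a relation from, and the sum is weighted to its brightest genes. Whether ninaD follows these markers was not tested. The identified fat body markers, which are genes of larval serum and fat body proteins, differed in the direction opposite to the midgut markers. Of 9 fat body markers, 5 were identified, and Lsp2, Fbp1, Fbp2 and Lsp1gamma rose, while Lsp1beta had a log2 difference of 0.62 and a limma adjusted p of 0.0514. Lsp1alpha, Yp1, Yp2 and Yp3, also in the list, had no identified probe set, so fat body genes in general were not tested. Nor was the share of the fat body in these adult RNA samples. The same selection holds here, with 171 of the 251 identified genes higher, against 3.29% of all probe sets that passed as higher. The summed intensity of the 5 fat body markers was 9847 to 14623 on the arrays labelled DHR96 mutant, against 4565 to 5505 in Canton S.

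Likeness to each gene was measured as the root mean square distance between log2 profiles over the 6 arrays, each taken relative to its own Canton S mean, among the other 250 identified genes. Because those genes were selected for a group difference, the distance mostly compares the sizes of that difference. Nearest to Npc1b was Smg6, of nonsense-mediated mRNA decay, at 0.0580, with 4988 ± 37.9 in the mutant-labelled arrays and 2045 ± 75.3 in Canton S (SD, n = 3 each). CG7953 (0.0848) and CG4734 (0.137) followed, then EMC6, a subunit of an endoplasmic reticulum membrane complex, at 0.225 and CG11413 at 0.249. Smg6 and EMC6 are the genes on either side of Hr96 in gene order. Few probe sets of the whole array came this close: the 5 named were also the 5 nearest of all those tested.

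The 5 genes nearest to ninaD all lay within 0.0830 of it. The nearest was Fancl, which encodes a ubiquitin ligase of DNA repair, at 0.0642, with 395 ± 10.3 in the mutant-labelled arrays and 581 ± 49.3 in Canton S (SD, n = 3 each). CG8708 (0.0696), CG14277 (0.0713) and PPO1 (0.0757), a prophenoloxidase gene, came next, and Fhos, a formin gene, at 0.0830. On the whole array 6 probe sets lay as near as Fhos, of which 5 are these genes.

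**Figure D5:**
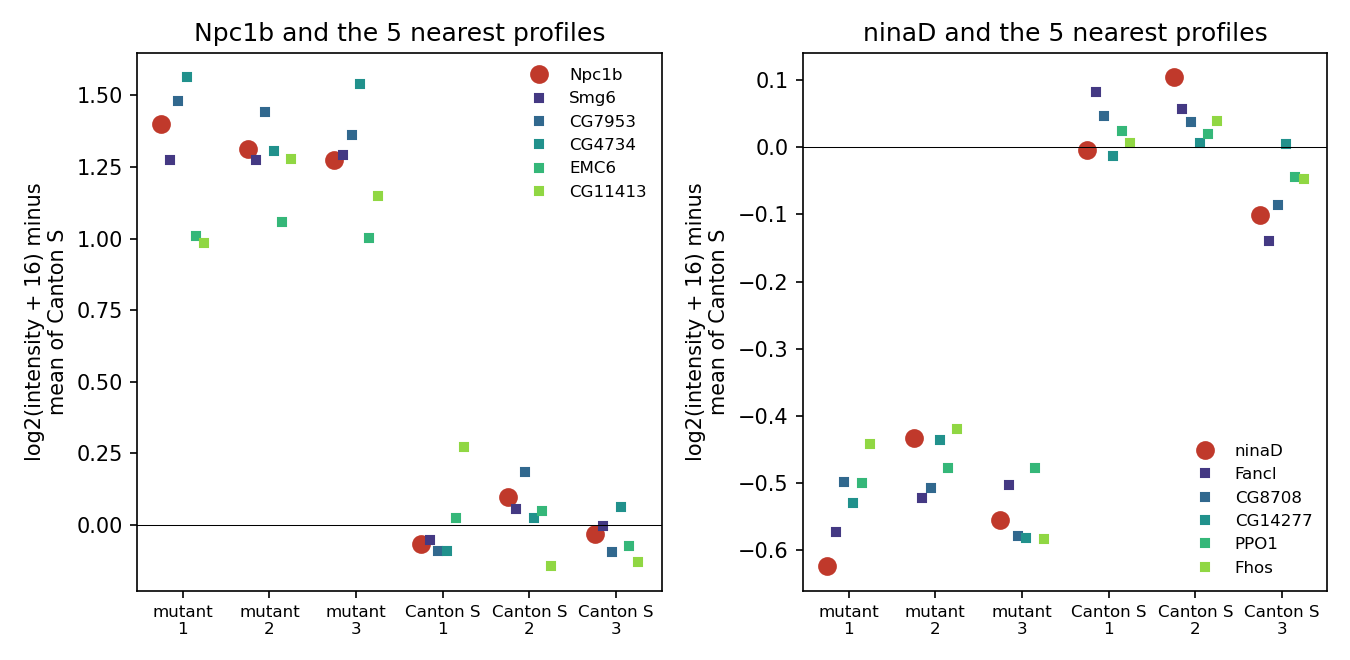
Log2(intensity + 16) on each array relative to the Canton S mean, for Npc1b and ninaD (large red points) and the 5 identified genes nearest to each (small squares), with the arrays labelled DHR96 mutant left of Canton S. The mutant-labelled values of Npc1b fall among those of Smg6, CG7953 and CG4734, and EMC6 lies below them.

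Npc1b lies on the X chromosome and ninaD on arm 2L, per Release 6 of the fly genome, which served for gene order alone, since the sources used here name no build. The gene after ninaD is CG31741, also listed in the CD36 family, and the gene before it is Arr1, which encodes a photoreceptor arrestin. The nearest identified gene to ninaD was CG15155, with 10 protein-coding genes between (log2 difference -0.42). For Npc1b it was Peritrophin-A, with 47 genes between (0.63), and on the other side Cyp6t1, a cytochrome P450 gene, with 50 between (-0.45).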

How the data were processed

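Each deposited value is a probe set intensity on a linear scale. Quantiles nearly coincide across arrays, so the authors had normalized them. MAS5 is named in the submitters' processing notes, with no role. Background correction, summary method, build and detection calls are not given in the sources used here. Per the labels' protocols, 6 ug of total RNA per sample was turned into biotinylated cRNA. Per the file headers, the authors' deposited table holds a q-value in percent, a signed fold, and a score with its log2 numerator and its denominator. The numerator equalled the mean log2 difference, mutant minus Canton S, within 5.68e-10 for all 260 probe sets, which sets its direction.

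From these, 183 control probe sets were left out of 18952, and limma 3.58.1 in R 4.3.3 (lmFit, eBayes with an intensity trend) was fitted to log2(intensity + 16) of the other 18769 with the group as the only term, two-sided, with Benjamini-Hochberg adjustment over all of them. No filter on low values was used, so both members were tested without one. The procedure was tested on simulated data with independent noise and no differences between the arrays of a group. That test therefore does not cover array differences such as the low poly-A control. The number of arrays limits the precision. Genes were named through the CG numbers of the deposited table and the Release 6 gene table (248 probe sets matched, 9 kept the file's name, 3 with several genes stay unnamed, and the brightest probe set stands for a gene). Other probe sets carry no name here. Named genes are the members, the identified genes of 4 pathway lists and 3 marker lists, the 5 nearest profiles of each member and its nearest identified neighbours. Genes that share an annotation term with a member, and Hr96, were added to these. Members and lists were chosen with earlier results of these data known.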

Additional observations from a re-analysis of the deposited data

How the results depend on the processing

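Over the 19 alternatives run for each, the differences ranged from 1.24 to 1.56 for Npc1b and from -0.62 to -0.49 for ninaD on the log2 scale. Several alternatives, the replicate block included, leave the difference at its main value by design. Because the groups do not overlap, another added constant, an array left out or the spike-in block could not reverse the sign. That the sign was kept is therefore no test of these differences. The unequal-variance statistic left the differences at 1.33 and -0.54 with adjusted p-values of 0.0754 and 0.160. The exact permutation test, on the same 1.33 and -0.54, cannot pass in this design. With the spike-in block ninaD was at -0.62 and did not pass, and 4 of the 9 pathway list genes passed in place of 8 (Npc1b, Npc2d, Npc2e and mag). With the unequal-variance statistic 1 did (Npc2e). The number of probe sets past the threshold was 1306, against 813 with no intensity trend, 240 with the replicate block, 31 with the spike-in block, 2 with the unequal-variance statistic (3297 at an unadjusted p under 0.05) and 287 to 803 with an array left out (287, 803 and 494 without Canton S replicates 1, 2 and 3; 450, 587 and 426 without DHR96 mutant replicates 1, 2 and 3). Higher calls made up 617 of 1306 in the main setting, 630 of 1093 after quantile normalization. The causes were not tested. Same-numbered arrays did not deviate together (correlations 0.19, -0.22 and -0.24), so the replicate block pairs samples by number alone. In it Npc1b and ninaD passed (limma adjusted p = 0.00250 and 0.0211).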
